A study of Bos taurus with 16 samples.

Results

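CLDN10, UPK1B, MAL, ANXA8L1 and DAPL1 are 5 genes known from epithelia, and MAL is known from T cells and myelin too. Each had a higher mean signal in corpora lutea of cows on days 40-45 and 150-160 of pregnancy than in those of cyclic cows. They were found by gene name, accession or description among the 15208 probes of a custom bovine array that are no control, which carry 6697 gene symbols. Each gene had 1 probe, so 5 of the 15208 probes are described. The genes were chosen for their rise on these same arrays, so their levels, differences and mutual correlations are given as a description with no test.

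The corpus luteum is the gland that forms from the ovulated follicle and makes the progesterone that keeps a pregnancy. It is built of steroid-making luteal cells, endothelium, pericytes and fibroblasts, and the ovary that carries it is covered by a mesothelium-like surface layer. Total RNA came from whole corpora lutea of 16 Japanese Black cows, 4 in each of 4 groups, and was labelled with Cy3 and hybridised to 1 array per cow. The cyclic cows were sampled on days 10-12 of the estrous cycle. The pregnant cows were sampled on days 20-25, 40-45 and 150-160, with day 1 the day of insemination. No cow had a genetic alteration or a drug treatment in the labels, and all ovaries were collected after slaughter. Pregnant glands are also older glands, so pregnancy and the age of the gland cannot be told apart.

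The 5 genes have different tasks. Claudins form the strands of tight junctions, and claudin 10 isoform b, which the CLDN10 probe was designed for, makes pores that let cations pass between cells. Uroplakin 1B, from UPK1B, is a tetraspanin of the stiff membrane plaques of the bladder lining. MAL is a small lipid-raft protein that carries cargo to the apical face of epithelial cells and is also found in T cells and myelin. ANXA8L1 encodes an annexin, a protein that binds phospholipids in the presence of calcium. DAPL1, also called EEDA for its link to early epithelial differentiation, encodes a small relative of the death-associated protein DAP and is not known as a membrane protein.

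All results on these genes rest on 1 probe of 60 bases each, so the first 30 bases are shown for each, 5′ to 3′, with the polyadenylation hexamer AATAAA in capitals where it is present.
CLDN10: gttgattcttggatgtaaatgttcttctat
UPK1B: tgtgcactgcaaaatatttttcttctgatc
MAL: gggAATAAAagtcattcagcaaatatttgc
ANXA8L1: gcaatggcaactgatcacaggagaaactga
DAPL1: tcaaatttgcaaatccaatgcatccttgga
The hexamer was searched for on the printed strand of the whole probes. It was found in the MAL probe alone among the 5, and in 11.27% of all 15208 probes. GC content was 35.0% in the CLDN10 and UPK1B probes, 40.0% in the DAPL1 probe, 41.7% in the MAL probe and 45.0% in the ANXA8L1 probe, against a median of 43.3% over all probes.

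Every level below is log2 of an array's processed signal for the probe minus log2 of that array's 75th percentile, which was 2020 to 4288 signal units. A level of 0 is therefore the 75th percentile of the array, and levels of different probes cannot be set against each other. Between 71.9% and 79.6% of probes were well above background per array. The arrays lay on 2 slides, with replicates 1 and 2 of every group on slide 1 and replicates 3 and 4 on slide 2. Within a slide each group kept its own positions, and those cannot be told apart from the groups. In a whole gland, more cells of a type and more RNA per cell cannot be told apart.

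CLDN10 was the gene with the plainest start from background. In cyclic cows its levels were -9.39, -9.22, -9.17 and -9.08, and no array was well above background. All 4 were surrogates, values that the software put in place of dim signals. On days 20-25 the levels were -8.71, -7.83, -8.87 and -8.54, with 0 of 4 arrays well above background and surrogates for replicates 3 and 4. On days 40-45 they were -5.94, -7.01, -7.76 and -6.13, and 2 of 4 arrays, replicates 1 and 4, were well above background. On days 150-160 they were -2.88, -3.95, -3.71 and -4.35, all well above background. The 4 late cows stood clear of all others, whereas days 20-25 and 40-45 came within a highest level of -7.83 and a lowest of -7.76, both below background.

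The CLDN10 group means were -9.22 ± 0.13, -8.48 ± 0.46, -6.71 ± 0.84 and -3.72 ± 0.62 (SD, n = 4), in the order of the groups. The log2 differences from cyclic cows were 0.73, 2.51 and 5.49, with an SE of 0.38 from the fit. With surrogates on all 4 cyclic arrays, the cyclic mean and SD describe those stand-ins and not a spread between cows. For probes with a group below background on every array, the fold is a lower bound: the mean of the bright group was set against the dim group, with each dim array entered at its own signal or at its dimmest measurable signal, whichever was higher. By that bound CLDN10 was at least 9.17-fold higher on days 150-160 than in cyclic cows and at least 7.72-fold higher than on days 20-25. With normexp correction the log2 difference of days 150-160 from cyclic cows was 2.19 or 2.03, less than the 3.20 with values below background raised to it. The bound thus holds only for the levels as given. For days 40-45 against cyclic cows the bound was at least 1.16-fold. The signals of the cyclic and days 20-25 groups were both below background, so no fold is given for that pair.

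UPK1B followed another course: it was high early in pregnancy and lower again on days 150-160. All 16 arrays were well above background. Its levels were -2.89, -2.27, -1.82 and -1.72 in cyclic cows and -0.09, 1.00, 0.54 and -0.12 on days 20-25. They were 0.44, 1.29, 1.08 and 1.28 on days 40-45 and 0.09, -0.24, -2.99 and 0.20 on days 150-160. Every cow on days 20-25 and 40-45 was above every cyclic cow, and the levels of those pregnant groups overlapped each other. On days 150-160, 3 cows were above all cyclic cows and replicate 3 was below all of them.

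The UPK1B means were -2.17 ± 0.53, 0.33 ± 0.54, 1.03 ± 0.40 and -0.74 ± 1.52 (SD, n = 4). The log2 difference from cyclic cows was 2.51 on days 20-25, 3.20 on days 40-45 and 1.44 on days 150-160, each with an SE of 0.56 from the fit. These are 5.69-fold, 9.19-fold and 2.71-fold. The log2 difference of days 150-160 from days 40-45 was -1.76, and all 4 cows of the later group were below all 4 of the earlier. Without replicate 3 of days 150-160 the difference of that group from cyclic cows was 2.19 in place of 1.44. In that cow the other 4 genes were not low: its levels were -3.71 for CLDN10, -1.64 for MAL and -3.55 for DAPL1, and its ANXA8L1 level of 0.27 was the highest of all 16.

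MAL had a higher mean at each stage than at the one before, with overlap between neighbouring stages. Its levels were -4.64, -4.13, -3.86 and -5.98 in cyclic cows and -3.90, -3.26, -3.58 and -2.29 on days 20-25. They were -2.73, -1.55, -2.37 and -2.82 on days 40-45 and 0.21, -1.96, -1.64 and -1.40 on days 150-160, with all 16 arrays well above background. The overlap held at every step, whereas days 40-45 and days 150-160 each lay wholly above the cyclic cows.

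The MAL means were -4.65 ± 0.94, -3.26 ± 0.70, -2.37 ± 0.58 and -1.20 ± 0.96 (SD, n = 4). The log2 differences from cyclic cows were 1.40, 2.28 and 3.46 for the successive pregnant groups, with an SE of 0.52, or 2.63-fold, 4.87-fold and 10.98-fold. Of the log2 rise reached on days 150-160, 40.4% was already present on days 20-25 and 66.1% on days 40-45.

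The ANXA8L1 probe is named ANXA8 in the array files, and whether near-identical copies of annexin A8 share it was not tested. ANXA8L1 had the widest spread among cyclic and days 20-25 cows and was higher in both later groups. In cyclic cows its levels were -8.12, -5.12, -5.52 and -8.06, and 2 of 4 arrays were well above background. On days 20-25 they were -7.31, -7.39, -4.34 and -5.28, again with 2 of 4 arrays well above background. On days 40-45 they were -4.13, -3.59, -3.51 and -2.20, and on days 150-160 they were -1.41, -1.40, 0.27 and -0.08, all well above background. The cyclic and days 20-25 cows overlapped, and days 40-45 and days 150-160 overlapped with no other group.

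The ANXA8L1 means were -6.71 ± 1.61, -6.08 ± 1.52, -3.36 ± 0.82 and -0.65 ± 0.88 (SD, n = 4). The log2 differences from cyclic cows were 0.63, 3.35 and 6.05, with an SE of 0.81. Only 2 of the cyclic arrays were well above background, so the size of the last difference depends on dim signals: it was 4.14 or 3.99 with normexp correction, and no fold is given. The first of the differences had opposite signs on the slides, -0.73 on slide 1 and 1.98 on slide 2.

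DAPL1 did not differ between cyclic cows and days 20-25 by more than the spread and was higher in both later groups. Its levels were -7.19, -7.79, -6.86 and -7.16 in cyclic cows, where only replicate 3 was well above background. They were -6.97, -8.39, -7.21 and -7.15 on days 20-25, where only replicate 1 was. On days 40-45 they were -5.39, -6.31, -5.72 and -4.80, and on days 150-160 they were -2.16, -3.72, -3.55 and -3.77, with 4 of 4 arrays well above background in both groups. Days 40-45 lay wholly above the earlier groups and wholly below days 150-160.

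The DAPL1 means were -7.25 ± 0.39, -7.43 ± 0.65, -5.55 ± 0.63 and -3.30 ± 0.77 (SD, n = 4). The log2 differences from cyclic cows were -0.18, 1.70 and 3.95, with an SE of 0.41. With 1 of 4 cyclic arrays well above background the sizes depend on dim signals, so no fold is given. With normexp correction and the 75th percentile the differences on days 40-45 and 150-160 were 0.53 and 2.05.

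**Figure D1:**
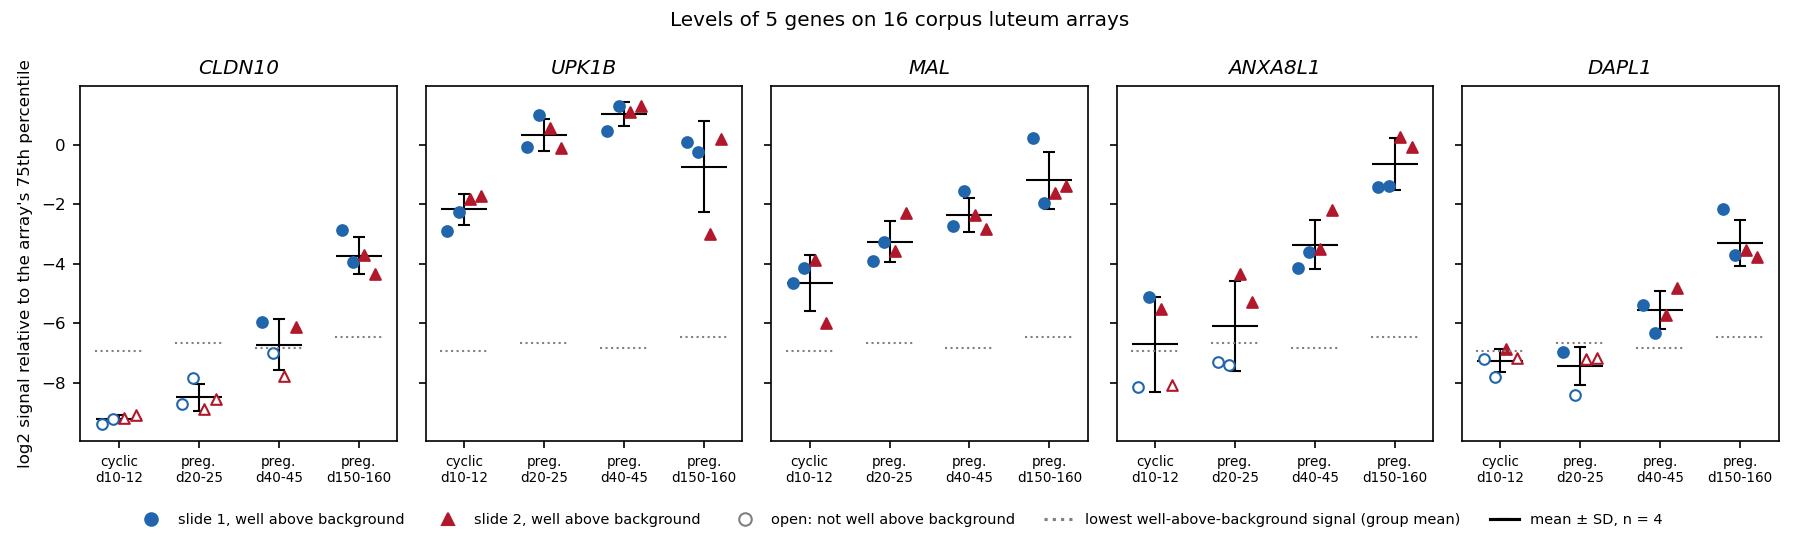
Levels of the 5 genes on each of the 16 arrays (vertical axis, log2 signal relative to the 75th percentile of the array; levels are not comparable between panels) by group (horizontal axis). Circles are slide 1 and triangles slide 2, open symbols are not well above background, bars are means ± SD (n = 4) and dotted lines the group's mean lowest signal well above background. CLDN10 starts below the dotted line in all cyclic cows, and UPK1B has 1 low cow of -2.99 on days 150-160.

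Across the 5 genes, every array of the pregnant group lay above every cyclic array for 2 genes on days 20-25 (CLDN10, below background throughout, and UPK1B). This held for all 5 genes on days 40-45 and for 4 on days 150-160, all but UPK1B. Of the 11941 probes tested, 5.69%, 5.08% and 6.58% met the same criterion in these comparisons. Since the genes were chosen for this rise, the counts describe the choice.

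The shared slide layout allowed each difference to be read on 2 against 2 arrays. Of the 15 differences from cyclic cows, 14 had the same sign on both slides, the exception being ANXA8L1 on days 20-25. On days 150-160 the log2 differences on slides 1 and 2 were 5.89 and 5.09 for CLDN10, 3.51 and 3.40 for MAL, and 4.55 and 3.35 for DAPL1. For ANXA8L1 they were 5.22 and 6.89. For UPK1B they were 2.50 and 0.38, the latter on the slide of the low cow, where the groups overlapped.

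**Figure D2:**
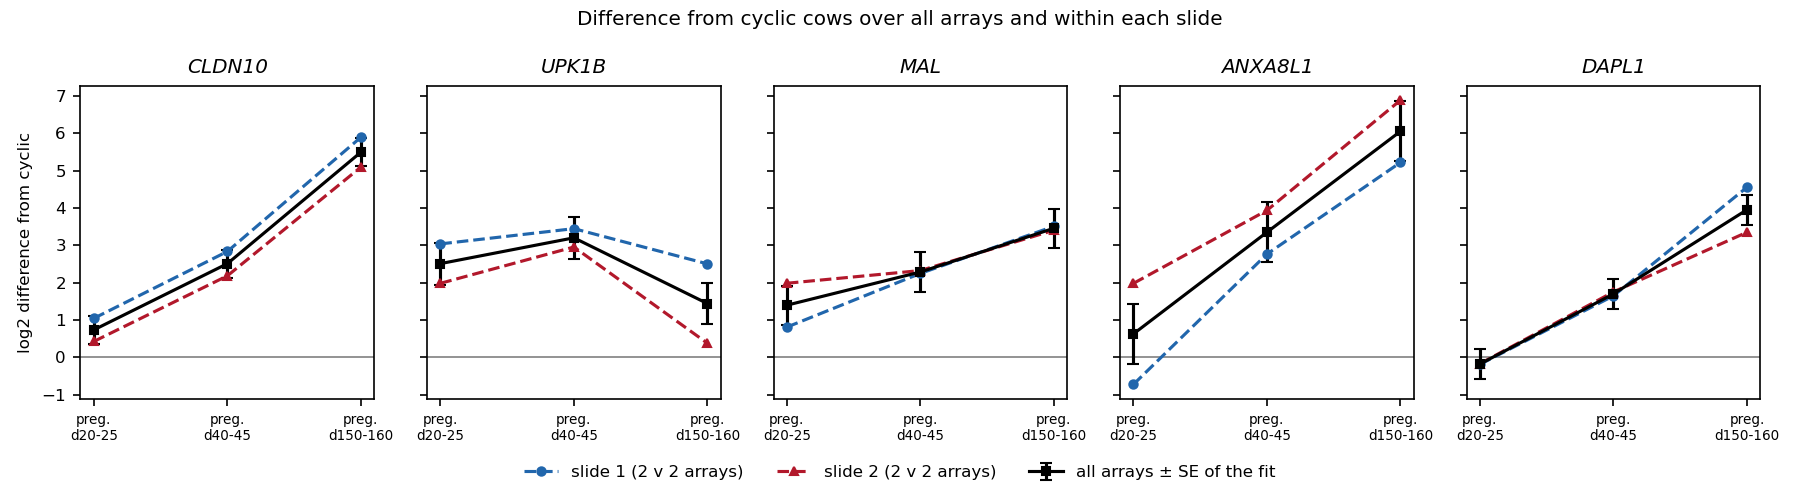
Log2 difference from cyclic cows (vertical axis) in each pregnant group (horizontal axis), over all arrays with the SE of the fit (squares, 4 against 4 arrays) and on slide 1 (circles) and slide 2 (triangles) alone (2 against 2 arrays each). The slides differ most for ANXA8L1 on days 20-25, at -0.73 and 1.98, and for UPK1B on days 150-160, at 2.50 and 0.38.

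Over the 16 arrays, CLDN10, MAL, ANXA8L1 and DAPL1 were closely correlated with each other. The points are arrays of the same 4 groups, so a shared rise enters every value, and no p-value is given. Pearson r was 0.94 for CLDN10 with DAPL1 (Spearman rho 0.86) and 0.86 for ANXA8L1 with both CLDN10 and DAPL1. It was 0.82 for MAL with CLDN10, 0.81 with ANXA8L1 and 0.77 with DAPL1. UPK1B stood apart, with r of 0.41 with MAL, 0.18 with CLDN10, 0.18 with ANXA8L1 and 0.09 with DAPL1.

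When days 150-160 were left out, an alternative chosen after seeing the data, UPK1B was correlated with the others over the remaining 12 arrays. Pearson r was 0.76 with MAL, 0.75 with CLDN10, 0.61 with ANXA8L1 and 0.45 with DAPL1. In those 3 groups, in order, CLDN10 was well above background on 0, 0 and 2 of 4 arrays. DAPL1 was so on 1, 1 and 4, and ANXA8L1 on 2, 2 and 4. Their values of r thus rest in part on dim signals, for CLDN10 almost wholly. No other treatment of dim signals was tried on the 12 arrays. Once the group means were taken out, the correlations were small on the levels as given, though not under every treatment of dim signals. The median r of the 10 pairs went from 0.79 over arrays to 0.10 over deviations from the group means, with a range from -0.20 for CLDN10 with ANXA8L1 to 0.35 for CLDN10 with DAPL1. With values below background raised to it, CLDN10 with DAPL1 had r of 0.91 within groups. That setting gave both genes the same value wherever both were dim, so part of this r is built in. Both were dim on replicates 1, 2 and 4 of the cyclic cows and replicates 2, 3 and 4 of days 20-25. With normexp background correction CLDN10 with DAPL1 had 0.90, and CLDN10 with MAL had 0.59 in place of 0.14. MAL with DAPL1 had 0.52 in place of 0.15, and the median within groups was 0.26. On days 150-160 replicate 1 had the highest level of CLDN10, MAL and DAPL1.

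**Figure D3:**
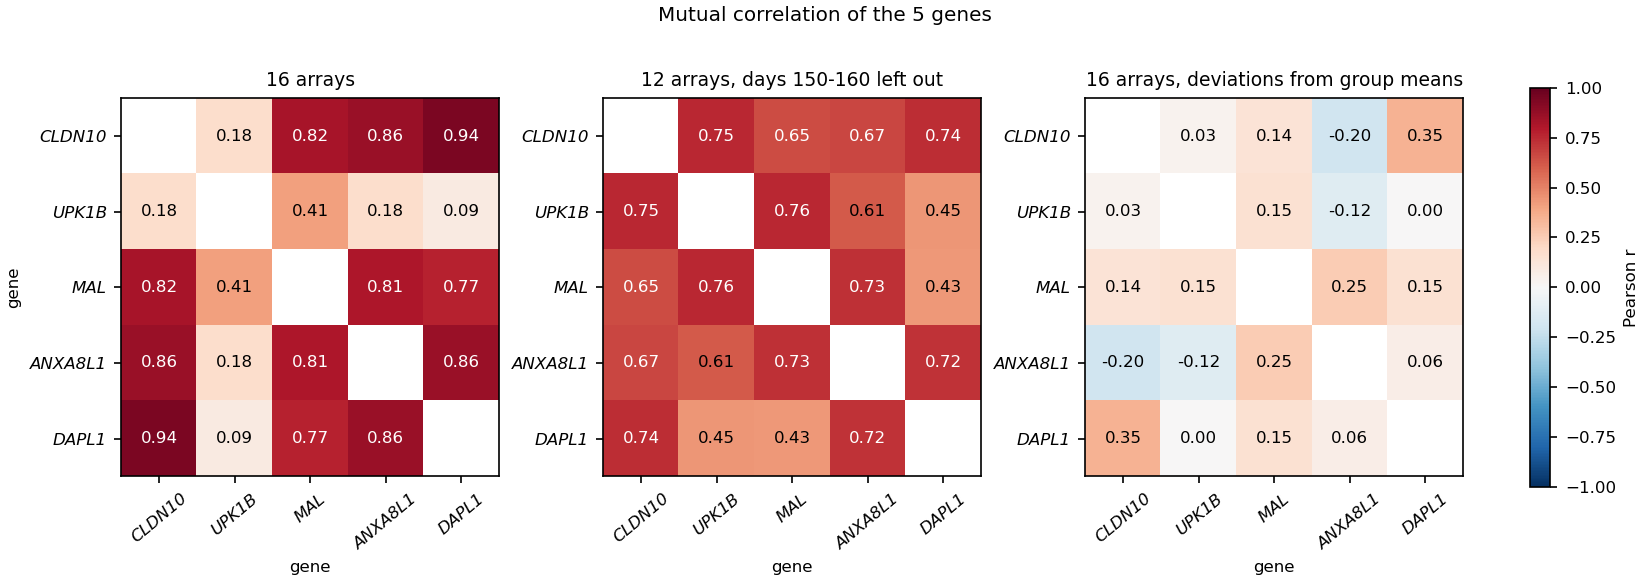
Pearson r (colour and number) between the levels of each pair of the 5 genes (both axes), over 16 arrays, over the 12 arrays outside days 150-160, and over deviations from the group means. UPK1B has r of 0.09 to 0.41 with the others on the left and 0.45 to 0.76 in the middle, and on the right no pair exceeds 0.35.

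The tested genes with a symbol whose course was most like that of each gene were named by Pearson r over the 16 arrays, among 11830 probes. For CLDN10 they were SERPINA1 (r 0.92), the antiprotease alpha-1-antitrypsin, SOST (0.90, a secreted inhibitor of Wnt signalling), CCL11 (0.89, the eosinophil chemokine eotaxin) and PPP2R2C (0.89). CLDN10 was well above background on 6 of 16 arrays, SERPINA1 on 8 and CCL11 on 11, so these values rest in part on dim signals. CLDN10 and CCL11 had the same cyclic mean of -9.22, which for CLDN10 was the mean of 4 surrogates. CLDN16, well above background on 0 of 16 arrays, had that cyclic mean too, so the shared value is no measured likeness. For MAL they were THBD (0.92), the endothelial thrombin receptor thrombomodulin, SOST (0.92) and ACE (0.92, the angiotensin-converting enzyme). For ANXA8L1 they were AOX1 (0.91, an aldehyde oxidase), ACSM1 (0.90), PLN (0.90) and SOST (0.90). For DAPL1 they were the annexin ANXA9 (0.92), PLN (0.90), SOST (0.89) and CCL11 (0.87). The best matches of UPK1B were weaker and none was shared with the others: MIC1 (0.74), PLA2G2D1 (0.71), TES (0.71) and RARB (0.68). By the mean r with all 5 genes, SOST (0.79), THBD (0.77), CCL11 (0.77), PTGER3 (0.76), SERPINA1 (0.76) and B3GAT2 (0.75) were nearest. The lowest r of each with any of the 5 genes was 0.33, 0.50, 0.35, 0.45, 0.33 and 0.41, in that order.

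Relatives of the 5 genes and markers of cell types were read from 17 lists, tested with limma over all 16 arrays and adjusted by the Benjamini-Hochberg method over all probes tested. Of all probes tested, 0.293% passed an adjusted p of 0.05 on days 20-25 (0.218% higher, 0.0754% lower), 1.23% on days 40-45 (0.536% higher, 0.695% lower) and 7.98% on days 150-160 (4.66% higher, 3.32% lower). Of the 168 list genes tested, 0 passed on days 20-25 (32 at an unadjusted p under 0.05), 3 were lower and none higher on days 40-45, and 15 were higher and 13 lower on days 150-160. The share of all probes at an unadjusted p under 0.05 was not counted. Counts at that threshold, here and below, are therefore descriptions only. With slide as a block, 2 list genes passed on days 20-25, WT1 (log2 difference 0.82, limma adjusted p = 0.046) and the endothelial factor ERG (0.57, adjusted p = 0.048). The median log2 difference of all probes was 0.05, 0.01 and 0.03 in these comparisons.

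Among the other claudins and tight junction genes, 19 were tested and 1 rose, on days 150-160, where 4.66% of all probes did. It was OCLN, the junction strand protein occludin, from -7.00 ± 0.29 to -5.85 ± 0.31 (SD, n = 4; limma adjusted p = 0.028). Of the cyclic arrays 1 of 4 was well above background for OCLN, and the call was lost when replicate 2 or 4 of the cyclic cows, or replicate 1 or 2 of days 150-160, was left out (adjusted p 0.0515 to 0.0718). CLDN3 had 4.46 in cyclic cows and 4.49 on days 150-160, and CLDN1 had -2.25 and -2.95 (adjusted p = 0.314). The list's median log2 difference on days 150-160 was 0.02.

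None of the 3 other uroplakins tested passed in any comparison, nor did any at an unadjusted p under 0.05. UPK1A, the paralog of UPK1B, had -5.95 in cyclic cows and -5.67 on days 150-160, UPK2 had -4.09 and -4.02, and UPK3B had -3.56 and -3.29. Of the 15 other tetraspanins tested, TSPAN17 fell by 0.82 on days 150-160 (limma adjusted p = 0.044), a call that was lost in 13 of the 16 fits that left out 1 array, with adjusted p up to 0.123.

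Of the other annexins and their S100 partners 11 were tested, and 2 rose on days 150-160. ANXA9 went from -6.82 ± 0.25 in cyclic cows to -6.68 ± 0.23, -6.07 ± 0.36 and -5.25 ± 0.41 (SD, n = 4), a log2 difference of 1.57 on days 150-160 (limma adjusted p = 0.00092). It was well above background on 12 of 16 arrays. ANXA3 had a log2 difference of 0.83 (limma adjusted p = 0.0074), and both calls stood whichever array was left out. The abundant ANXA1 and ANXA2 had differences of 0.26 and -0.05 on days 150-160 and did not pass.

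Of the MAL family and lipid raft genes, 7 were tested and 0 passed in any comparison (2 at an unadjusted p under 0.05 on days 20-25, 0 on days 40-45 and 0 on days 150-160). MALL, the MAL-like gene, is next to MAL on chromosome 11 in the RefSeq assembly ARS-UCD2.0, with no coding gene between them. Its level was -5.80 ± 0.26 in cyclic cows and -5.57 ± 0.41 on days 150-160 (SD, n = 4; limma adjusted p = 0.59), where MAL had a difference of 3.46. The relative of DAPL1, DAP, had a log2 difference of 0.44 on days 150-160 (limma adjusted p = 0.036), which was lost in 7 of 16 fits that left out 1 array, with adjusted p up to 0.0856 without days 150-160 replicate 3. In that list of 9 death and survival genes, FAS, a death receptor, rose by 1.28 and BAK1, which opens the mitochondrial outer membrane, fell by 0.88.

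None of the general epithelial markers passed the test as higher, and on days 150-160 only 4.66% of all probes did. With 18 markers tested, 0 is near that share. Of 28 on the array, 18 were tested; by limma 0 were higher and 1 was lower on days 150-160, and 5 had an unadjusted p under 0.05, 3 of them higher. The list's median log2 difference was 0.27 on days 150-160, with 12 of 18 above 0. The lower one was SPINT1, a protease inhibitor of epithelial cells, which fell by 2.22 (limma adjusted p = 0.014). EPCAM was well above background on 3 of 16 arrays, 2 of them of cyclic cows. CDH1, the adherens junction protein E-cadherin, had 2.61 in cyclic cows and 2.11 on days 150-160, KRT8 had 2.75 and 1.81, and KRT19 had -1.86 and -1.88. The summed linear level of the 28 markers was 51.2 to 60.5 in cyclic cows and 42.0 to 59.6 on days 150-160, in multiples of the array's 75th percentile. That sum is carried by a few bright probes, SFN among them with a log2 level of 5.09 in cyclic cows, and says little of the dimmer markers.

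Markers of the mesothelium and ovarian surface moved in part. Of 12 tested, 2 were higher on days 150-160 and none was lower; UPK3B, KRT8 and KRT19 of this list also stand in the lists above. WT1, a transcription factor of mesothelium and gonads, went from -3.28 ± 0.23 in cyclic cows to -2.28 ± 0.29 (SD, n = 4; limma adjusted p = 0.0037), and its call stood whichever array was left out. CRIP2 rose by 0.78 (limma adjusted p = 0.034), a call lost when replicate 2 or 4 of the cyclic cows, or replicate 1, 3 or 4 of days 150-160, was left out (adjusted p 0.0515 to 0.0896). CALB2, or calretinin, had log2 differences of 2.12, 1.68 and 0.41 that did not pass (adjusted p 0.149, 0.217 and 0.746). The summed linear level of the list was 13.2 to 34.6 in cyclic cows, 22.6 to 32.9 on days 20-25, 23.5 to 39.0 on days 40-45 and 17.2 to 31.0 on days 150-160, and no member was below background on all arrays. Its part in the rise of the 5 genes was not tested. In the cow with the low UPK1B level, 2 of the 12 genes were the lowest and 2 the highest of the 4 cows on days 150-160, a comparison chosen after seeing the data. Of the oviduct markers 2 were tested and 0 passed (2 at an unadjusted p under 0.05 on days 150-160).

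Factors of epithelial and mesenchymal state went down where they passed. SNAI2, a repressor of epithelial genes, fell by 1.18 on days 40-45 (limma adjusted p = 0.049) and by 1.21 on days 150-160 (adjusted p = 0.015), and FN1, fibronectin, fell by 1.95 on days 150-160. The first of these calls was lost in 13 of 16 fits that left out 1 array (adjusted p up to 0.135). The other 3 of the 5 genes tested did not pass.

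The tissue label held: the steroidogenic genes STAR, CYP11A1 and HSD3B1 were high in all groups, with group means of 7.31 to 7.62, 6.38 to 6.59 and 6.96 to 7.44. Among the 11 luteal genes tested, OXT, which encodes oxytocin, fell by 4.05 on days 40-45 and fell by 7.97 on days 150-160, where PTGFR and PRLR, receptors of prostaglandin F and prolactin, rose. On days 150-160, 4.66% of all probes passed as higher and 3.32% as lower. There FLT1, TEK and ENG rose among 15 endothelial genes. COL1A1, COL1A2, COL3A1 and THY1 fell among 13 genes of smooth muscle, pericytes and fibroblasts. The other 9 of these 13 did not pass. Above 0 were 4 of them, ACTA2 (0.96), RGS5 (0.56), NOTCH3 (0.36) and MCAM (0.33), so the list did not fall as a whole. Of 13 immune genes ITGAM rose and CD68 fell, the latter on days 40-45 too. Of 7 neural genes NEFM rose and NCAM1 fell, GATM fell among 9 genes of the granulosa and CYP17A1 rose among 3 of the theca. The calls of PTGFR, TEK, COL1A1, COL3A1 and GATM, and that of CD68 on days 40-45, were each lost when 1 or more of the arrays was left out singly (adjusted p up to 0.121). The part of these shifts in the rise of the 5 genes was not tested.

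**Figure D4:**
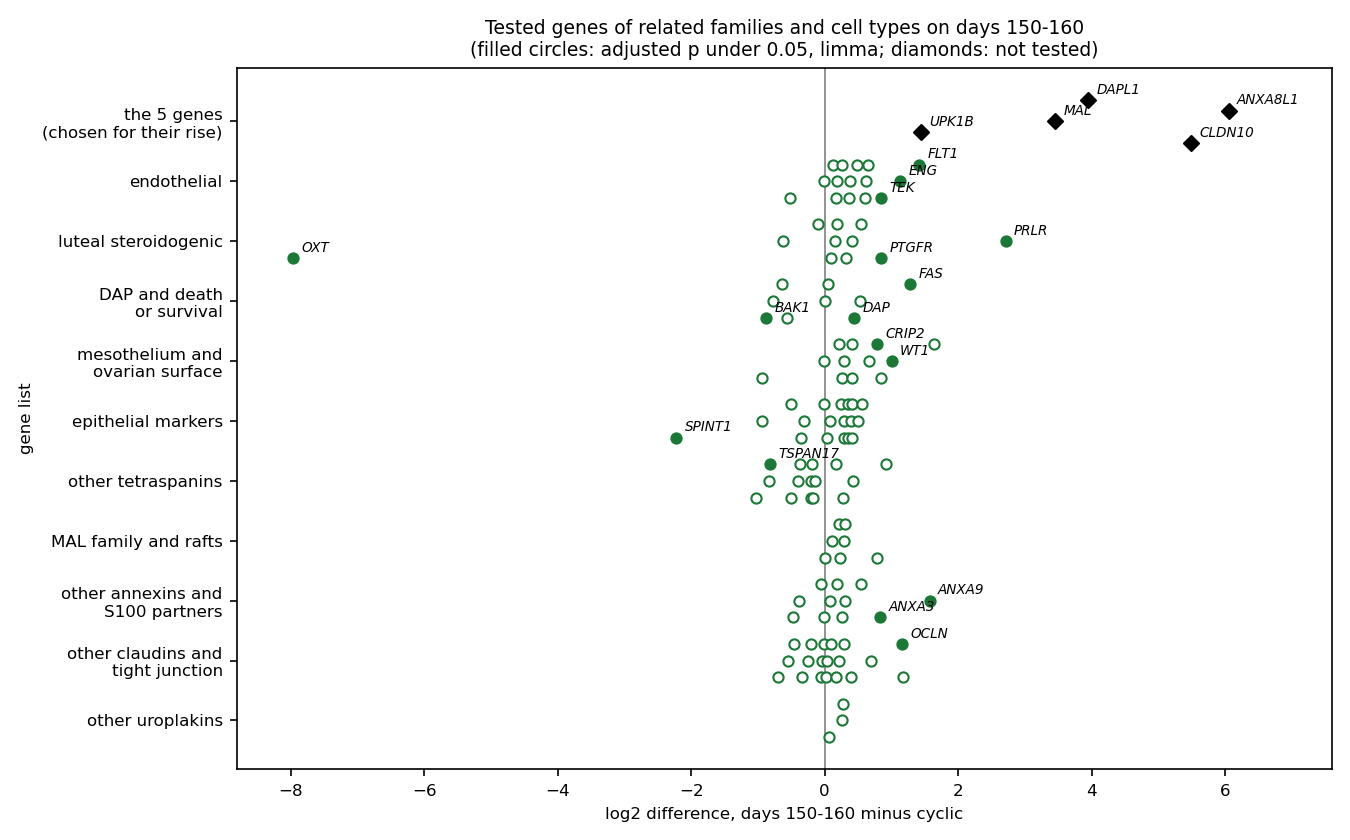
Log2 difference between days 150-160 and cyclic cows (horizontal axis) of the tested genes of 10 lists (rows, circles) and of the 5 genes (diamonds, not tested). Filled circles passed an adjusted p of 0.05 by limma. None of the 18 epithelial markers passed as higher, where 4.66% of all probes did, and OXT lies farthest left at -7.97.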

How the data were processed

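Scans of 16 1-colour arrays, 400 ng of labelled RNA each, were read with Agilent Feature Extraction 9.5, per the submitters' processing notes. Per the file headers, the deposited processed signals are linear intensities from which background was subtracted, with surrogates for dim spots. The deposited value table is on a log2 scale and equals log2 processed signal minus a constant near the array's 75th percentile, to within 0.0046. The medians of its columns were -3.18 to -2.98. It served as an alternative.

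Of 15744 features, 536 control spots were left out and 220 outlier-flagged spots set to missing. Values are log2 processed signal minus the array's 75th percentile. Probes well above background without outlier flags on at least 3 of 4 arrays of a group were tested (11941; 11940 on days 150-160) with limma 3.58.1 in R 4.3.3 (12 residual and 2.77 prior degrees of freedom) on group. RefSeq (ARS-UCD2.0) named 7029 of the 15208 probes: 2496 by accession, 1984 by gene ID, 1584 by symbol and 965 by a human gene in the description. DAPL1's probe is called EEDA and ANXA8L1's ANXA8 in the array files. A gene with several probes was represented by the one with the highest mean. None of the 5 probes was saturated or had an outlier flag. The scripts were tested on simulated data.

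The members and lists were chosen with earlier results of these data known. Named were the 5 genes, their closest relatives, defining cell type markers, list genes past the threshold and the 4 genes of highest r per gene, of which 1 is not reported here. Same-numbered cows were not paired by the labels; deviations of same-numbered arrays correlated by 0.00 to 0.29, over 0.1 in 9 of 24 pairs. The number of arrays limits the precision.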

Additional observations from a re-analysis of the deposited data

Results flagged for a closer look

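In groups of 4, a cow was listed when its gap to the nearest other cow, as a share of the group's range, exceeded Dixon's critical value. Chance alone lists about 1 in 20 groups. Among the 5 genes 3 of 20 groups were listed, and among the list genes that passed the threshold 8 of 112.

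For UPK1B on days 150-160, replicate 3 had a level of -2.99 and the nearest cow -0.24. For DAPL1 on days 150-160, replicate 1 had -2.16 and the nearest cow -3.55. For DAPL1 on days 20-25, replicate 2 had -8.39 and the nearest cow -7.21, with neither well above background.

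Among the list genes, cyclic cows held single values far from the rest for ANXA3 (1.52), CYP17A1 (-2.36), NEFM (-5.65) and OCLN (-7.44). On days 20-25 such values were found for FN1 (1.58), GATM (-5.05) and SPINT1 (-4.20), and on days 150-160 for THY1 (0.79).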

How the results depend on the processing

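The 15 differences of the 5 genes from cyclic cows were each refitted under alternative settings, 411 refits in all. They kept their sign in 407 refits, and in 393 they moved by less than the spread between cows. Many of these refits could not move a difference. It stays the same by design with slide or replicate number as a block and with no filter on dim probes. The same holds when an array of a group outside the comparison is left out. The counts therefore overstate how stable the differences are. The sign changed on days 20-25 only, for ANXA8L1 within slide 1 (-0.73) and for DAPL1. For DAPL1 it was 0.04 with normexp and the 75th percentile, 0.25 with values below background raised to it, and up to 0.14 with 1 array left out. The exceptions by size lay in dim groups. For CLDN10 on days 20-25, 40-45 and 150-160 the log2 difference was 0.27, 0.62 and 2.19 with normexp and the 75th percentile, 0.11, 0.57 and 2.03 with normexp and quantile normalization, and 0.25, 0.57 and 3.20 with values below background raised to it; quantile normalization of the processed signal gave 0.33 on days 20-25. With the normexp settings ANXA8L1 had 1.71 and 1.63 on days 40-45 and 4.14 and 3.99 on days 150-160, and DAPL1 0.53 and 0.47, and 2.05 and 1.89. The dim levels thus limit the size, and CLDN10, ANXA8L1 and DAPL1 had no value among probes well above background on all 16 arrays. The median r of 0.79 became 0.70 without days 150-160.

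Leaving out 1 array gave 0.51 to 0.86, 2.25 to 2.86 and 5.21 to 5.70 for CLDN10, 2.27 to 2.66, 2.96 to 3.39 and 1.13 to 2.19 for UPK1B, 0.95 to 1.66, 1.84 to 2.55 and 2.99 to 3.72 for MAL, 0.04 to 1.15, 2.88 to 3.88 and 5.58 to 6.58 for ANXA8L1, and -0.36 to 0.14, 1.45 to 1.95 and 3.57 to 4.11 for DAPL1. It gave a median r of 0.71 to 0.82, and -0.09 to 0.15 within groups.

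Counts of probes that passed were 35, 147 and 953. They were 78 on days 20-25 with slide as a block; 94 with normexp and 90 with no filter on dim probes on days 40-45; 3, 51 and 250 within slide 1; 6, 12 and 21 within slide 2, where fewer arrays were fitted; and 4 to 85, 63 to 226 and 580 to 1106 with 1 array left out. List genes that passed were 0, 3 and 28; slide as a block gave 2 on days 20-25 and 5 on days 40-45 (DAP and PRLR, both higher, beside the 3), slide 1 alone 1 on days 20-25 and 10 on days 150-160, slide 2 alone 0 on days 40-45 and 1 on days 150-160, and leaving out 1 array 0 to 2, 1 to 5 and 21 to 29. Of 31 single calls 20 stood whichever array was left out. The fit with the replicate number as a block, a number the cows only share, called 39, 199 and 1087 probes and kept 29 of 31 calls; COL1A1 and COL3A1 were lost.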
